A study of Homo sapiens with 4 samples.

Results

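The 10 genes described here are Notch receptors, ligands, targets and a receptor-modifying enzyme: NOTCH1, NOTCH2, NOTCH3, JAG1, JAG2, DLL1, HES1, HEY1, HEY2 and LFNG. They were taken as a fixed list by platform gene symbol, and all 10 were found among the 18417 genes measured. Each had 1 feature of its own on the array, so no choice between features was needed. The cells were HCE, labelled as an undifferentiated cell line and grown in a corneal epithelial study of KLF7, a zinc finger transcription factor. The siKLF7 group (2 arrays) was transfected with an siRNA pool against KLF7, and the scramble control group (2 arrays) with a non-targeting control pool. Both pools were used at 20 nM on 100000 plated cells per well, and total RNA was collected after 48 hours. Both groups therefore shared transfection, and no untransfected cells were analysed here. Separate cultures are not stated for the replicates, so the p-values describe a spread between samples that may be technical only.

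Notch receptors are membrane proteins that are cut after a ligand on a neighbouring cell pulls on them. The released intracellular part enters the nucleus, binds the DNA-binding protein RBPJ and turns on targets such as the HES and HEY repressors. Notch signalling is known in stratified epithelia for guiding cells out of the basal layer into differentiation, and for cell fate in the corneal epithelium.

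One array stood apart before any comparison. The correlation across genes was r = 0.934 to 0.938 between scramble control replicate 1 and each other array, and 0.990 to 0.994 among the other 3. Of 9 measured corneal and limbal epithelial markers, 5 were at least 2-fold lower in scramble control replicate 1 than the mean of the other arrays. The summed signal of the 9 was 38803 and 41517 in the siKLF7 arrays, against 25924 and 35058 in scramble control replicates 1 and 2. KRT5, a basal keratin gene, had signals of 13229 and 13575 in the siKLF7 arrays and 11828 and 12764 in the controls, while the cornea-type keratin gene KRT3 had 1873 and 2461 in the siKLF7 arrays and 0.0055 and 1440 in the controls. Of that list only KRT3 was near 0, in scramble control replicate 1. KRT12 and ALDH3A1 were also far lower there, at 67.7 and 40.8, against 1570 and 763 in replicate 2. CDH1 went the other way, with 3280 and 3161 in the siKLF7 arrays and 3939 and 3262 in the controls. The summed signal of 10 fibroblast and keratocyte markers was 1050.5 and 1099 in the siKLF7 arrays, against 2457 and 1108 in the controls. In that list 2 genes were at least 2-fold higher in scramble control replicate 1. POSTN had signals of 77.4 and 44.1 in the siKLF7 arrays and 678 and 25.4 in the controls, and THY1 had 101 and 109 in the siKLF7 arrays and 752 and 111 in the controls. LUM was above both controls, with 63.5 and 62.4 in the siKLF7 arrays and 25.1 and 34.6 in the controls. No marker in the list was below the pseudocount in all arrays. Vascular (8 of 8 measured), leukocyte (7 of 8) and melanocyte (4 of 5) markers had 0 genes 2-fold apart in that array. Summed vascular signal was 1437 and 1502 in siKLF7 against 1788 and 1618 in controls, leukocyte signal 1538 and 1605 against 2070 and 1736, and melanocyte signal 205 and 216 against 222 and 217. The part of these markers in the Notch values below was not tested. In bulk RNA, fewer cells of a type and less RNA per cell cannot be told apart.

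Each value is therefore given against both controls (4 arrays) and against scramble control replicate 2 alone (3 arrays). Where it matters, it is also given against scramble control replicate 1 alone. A fit with 1 control array holds no spread between controls. Its SE and p therefore cannot tell an effect of siKLF7 from an offset of that array. Levels and differences are on the log2(signal + 16) scale, which understates the change of dim genes, and a gene passed at a Benjamini-Hochberg adjusted p under 0.05 in limma over all genes. KLF7 itself had signals of 1492 and 1122 in the siKLF7 arrays and 4649 and 2911 in scramble control replicates 1 and 2. Both siKLF7 arrays were below both controls. The log2 difference was -1.50 (SE 0.28, limma adjusted p = 0.639) with 4 arrays, and with 3 arrays KLF7 fell by 1.16 (SE 0.13, limma adjusted p = 1.2e-09). With 3 arrays 4 of the 9 epithelial markers passed as well, against 1.57% of all genes. KRT15, KRT12, ALDH3A1 and KRT3 rose by 0.85, 0.81, 0.65 and 0.57 (limma adjusted p = 4.9e-06, 3.2e-06, 0.0060 and 0.0048). Of the 10 fibroblast and keratocyte markers 2 passed, POSTN and LUM, which rose by 0.86 and 0.64 (limma adjusted p = 0.0012 and 0.018).

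Among the Notch genes, 0 of 10 passed with 4 arrays, where the share over all genes was 0.0% (limma, and 5.8% at an unadjusted p under 0.05). In that fit 1 member, HEY1, had an unadjusted p below 0.05 and was lower, beside 3.9% of all genes lower and 1.9% higher at that level. With 3 arrays 1 of 10 passed, HEY2, which was higher in siKLF7 cells, against 1.57% of all genes (0.885% higher and 0.69% lower). Against scramble control replicate 1 alone, 6 of 10 passed in limma, against 26.8% of all genes. The groups did not overlap for 3 of the 10 genes: LFNG was above both controls, and NOTCH1 and HEY1 were below both. Over all genes the groups did not overlap for 45.2% (16.3% above and 28.9% below). The median log2 difference of the 10 was 0.05 with 4 arrays and -0.03 with 3 arrays, beside -0.05 and -0.04 over all genes. The 4-array median turned with the arrays and genes kept, from -0.03 to 0.11 over fits that left out 1 array, and to -0.07 without the dimmest 50% of genes. It was -0.03 without either control array, -0.02 without siKLF7 replicate 1 and 0.11 without siKLF7 replicate 2.

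**Figure D1:**
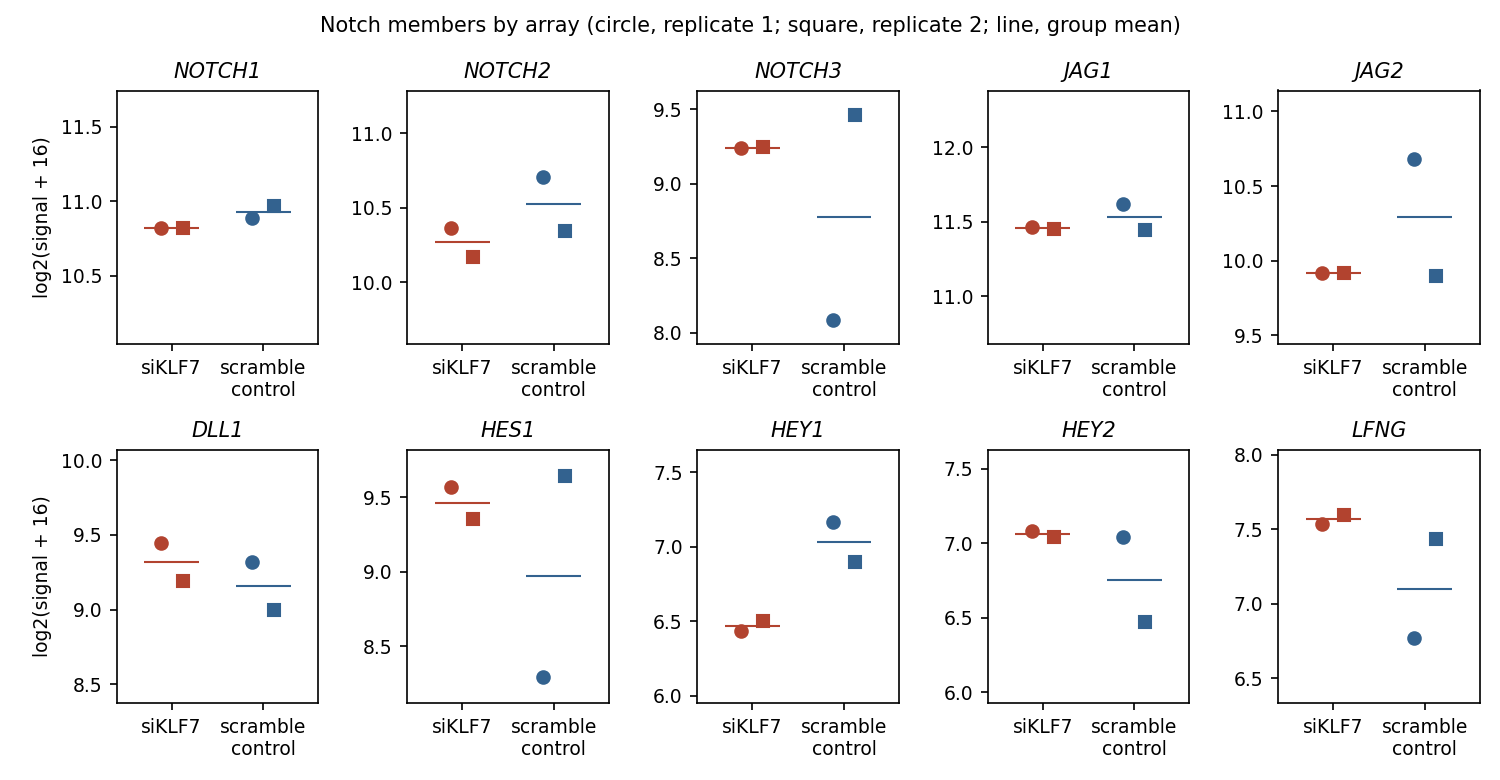
Level of each Notch gene on the log2(signal + 16) scale, in siKLF7 arrays (red, left) and scramble control arrays (blue, right). Circles are replicate 1, squares replicate 2, lines group means (n = 2 each), and every panel spans the same height. The control arrays are further apart than the siKLF7 arrays in all 10 panels, most for NOTCH3 (1.37) and HES1 (1.35).

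The receptor NOTCH1, which in epidermis drives suprabasal differentiation, had signals of 1795 and 1789 in the siKLF7 arrays and 1877 and 1987 in scramble control replicates 1 and 2. Both siKLF7 values were just below both controls. The log2 difference was -0.11 (SE 0.12, 95% interval -0.42 to 0.21) with 4 arrays and -0.15 (SE 0.12, -0.40 to 0.10) with 3 arrays, and neither passed in limma (adjusted p = 0.725 and 0.681). NOTCH2, a widely expressed receptor, had signals of 1302 and 1134 in the siKLF7 arrays and 1651 and 1285 in the controls. The siKLF7 arrays lay on either side of scramble control replicate 2, and both were below scramble control replicate 1. It differed by -0.26 (log2, SE 0.18) with 4 arrays and by -0.08 (SE 0.14) with 3, and neither passed in limma. Against scramble control replicate 1 alone the difference was -0.44 (SE 0.14, limma adjusted p = 0.011). NOTCH2 has near-identical partial copies in the human genome, the NOTCH2NL genes, whose transcripts its feature may also read. A further feature assigned to NOTCH2, NOTCH2NLA and NOTCH2NLB together differed by -0.29 with 4 arrays and -0.10 against scramble control replicate 2.

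NOTCH3, a receptor best known from vascular smooth muscle, showed the widest control gap of the list. Its signals were 588 and 590 in the siKLF7 arrays and 256 and 689 in scramble control replicates 1 and 2. The siKLF7 arrays lay between the controls, close to each other and nearer to replicate 2. On the log2 scale NOTCH3 differed by 0.47 (SE 0.47, 95% interval -0.77 to 1.70) with 4 arrays and -0.22 (SE 0.16, -0.54 to 0.09) with 3 arrays, and neither passed in limma (adjusted p = 0.701 and 0.622). Scramble control replicate 1 was 2.34-fold below the mean of the other 3 arrays. Against that array alone the difference was 1.15 (SE 0.16, limma adjusted p = 7.2e-09). The direction thus turned with the control chosen.

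The promoter of NOTCH3 is shown because it holds the most matches in the list to the GC box, a motif that SP and KLF family factors can bind, searched as GGGCGGGG on both strands. It has 4 matches, and the first 2 of them share 1 base. Capitals mark them in the 100 bases before the annotated start (RefSeq, GRCh38.p14, chr19:15200996-15201095, minus strand, written 5′ to 3′ along the gene).
NOTCH3: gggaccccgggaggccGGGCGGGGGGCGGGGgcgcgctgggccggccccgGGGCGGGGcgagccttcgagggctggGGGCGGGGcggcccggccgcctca
RefSeq promoters, running from 250 bases before to 50 after the start, were found for 8 of the 10 genes, with 2 for LFNG, and not for DLL1 and HEY1. The GC box was present in 6 of these 8 genes (NOTCH1, NOTCH2, NOTCH3, JAG1, JAG2 and HEY2) and in 22.8% of 35116 promoters of the same length. This share and those for the RBPJ motif below count promoters rather than genes and were not matched for base composition. No enrichment can be read from them. A match is a description of the letters and does not show binding.

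The ligand JAG1, a Jagged-type activator of Notch, had signals of 2809 and 2787 in the siKLF7 arrays and 3128 and 2768 in scramble control replicates 1 and 2. The siKLF7 arrays were almost level with replicate 2 and lower than replicate 1. JAG1 differed by -0.07 (log2, SE 0.12, 95% interval -0.39 to 0.25) with 4 arrays and 0.02 (SE 0.11, -0.20 to 0.23) with 3 arrays, and neither passed in limma. JAG2, the related Jagged ligand, had signals of 949 and 949 in the siKLF7 arrays and 1627 and 939 in the controls. Replicate 1 of the control alone was high, 1.71-fold above the mean of the others. The log2 difference of JAG2 was -0.38 (SE 0.29, -1.13 to 0.38) with 4 arrays, 0.01 (SE 0.15, -0.28 to 0.31) with 3 arrays, and -0.77 (SE 0.14, limma adjusted p = 7.7e-06) against scramble control replicate 1 alone.

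DLL1, a Delta-type ligand of basal and stem-like keratinocytes, had signals of 683 and 570 in the siKLF7 arrays and 622 and 494 in scramble control replicates 1 and 2. The groups overlapped, and both siKLF7 arrays were above replicate 2. DLL1 differed by 0.17 (log2, SE 0.19) with 4 arrays and by 0.33 (SE 0.16, 95% interval 0.01 to 0.65) with 3 arrays, which did not pass over all genes (limma adjusted p = 0.431). LFNG, the Fringe glycosyltransferase that adds a sugar to Notch and changes which ligands it answers to, had signals of 170 and 178 in the siKLF7 arrays and 93.0 and 157 in the controls. Both siKLF7 arrays were above both controls, by little against replicate 2 and by more against replicate 1. The log2 difference of LFNG was 0.47 (SE 0.24, -0.18 to 1.11) with 4 arrays, 0.13 (SE 0.16, -0.19 to 0.45) with 3 arrays, and 0.80 (SE 0.16, limma adjusted p = 3.4e-05) against scramble control replicate 1 alone.

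**Figure D2:**
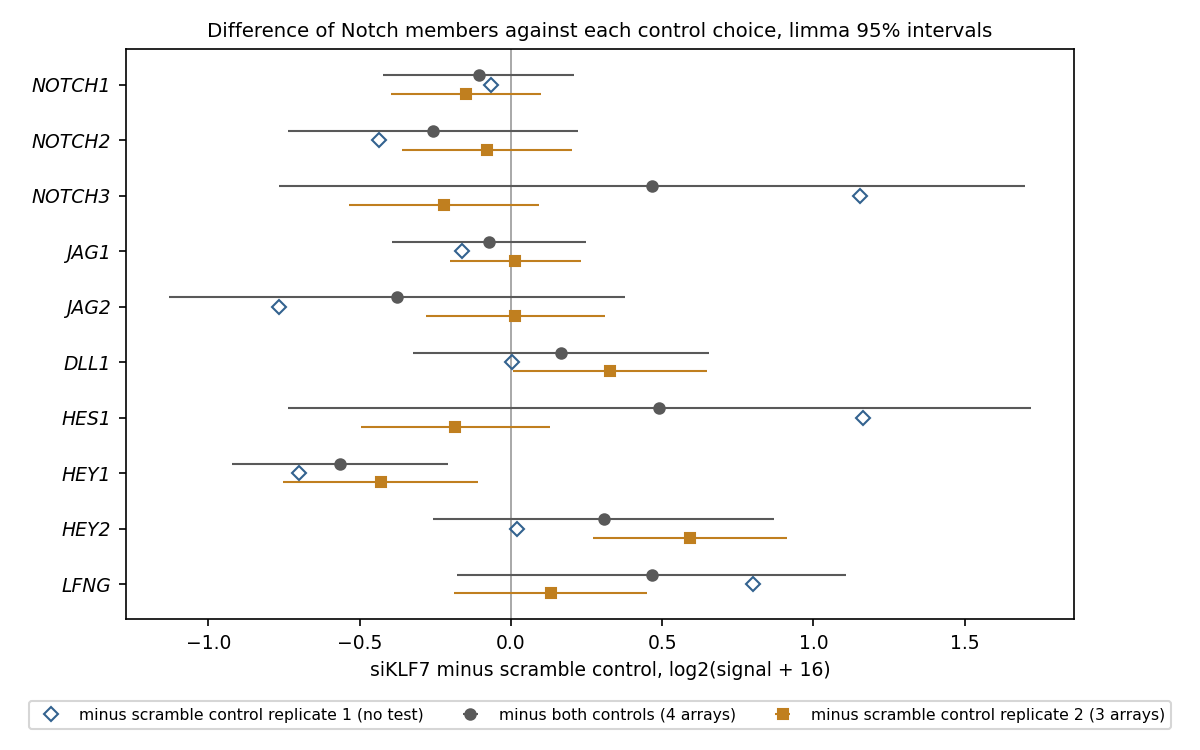
siKLF7 minus scramble control for each Notch gene on the log2(signal + 16) scale, against both controls (grey circles), scramble control replicate 2 (orange squares) and scramble control replicate 1 (open diamonds). Bars are limma 95% intervals. HEY1 (-0.57, -0.43 and -0.70), NOTCH1 and NOTCH2 are below 0 against every choice, and DLL1, HEY2 and LFNG are above it. Against replicate 1, DLL1 and HEY2 are so by only 0.004 and 0.02. NOTCH3, HES1, JAG1 and JAG2 lie on opposite sides of 0 against the 2 control arrays. For JAG1 and JAG2 the difference from replicate 2 is only 0.02 and 0.01.

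HES1, a basic helix-loop-helix repressor and a direct Notch target, had signals of 743 and 636 in the siKLF7 arrays and 298 and 783 in scramble control replicates 1 and 2. The siKLF7 arrays lay between the controls, as for NOTCH3. HES1 differed by 0.49 (log2, SE 0.47, 95% interval -0.74 to 1.72) with 4 arrays and -0.18 (SE 0.16, -0.50 to 0.13) with 3 arrays, and neither passed in limma (adjusted p = 0.688 and 0.686). Scramble control replicate 1 was 2.34-fold below the mean of the other arrays, and the difference against it alone was 1.17 (SE 0.16, limma adjusted p = 5.2e-09). NOTCH3 and HES1 were the 2 members at least 2-fold lower in that array, against 2.99% of all genes, and 0 were at least 2-fold higher, against 2.11%.

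HEY1 and HEY2 encode repressors of the Hairy/E(spl)-related family that act downstream of Notch, and their differences had opposite signs. HEY1 had signals of 70.5 and 74.8 in the siKLF7 arrays and 128 and 103 in scramble control replicates 1 and 2. Both siKLF7 arrays were below both controls, and the gap between the groups was wider than the gap within either. The log2 difference was -0.57 (SE 0.14, 95% interval -0.92 to -0.21), or 1.48-fold lower, with 4 arrays, and -0.43 (SE 0.16, -0.75 to -0.11), or 1.35-fold lower, with 3 arrays. Neither passed over all genes in limma (adjusted p = 0.639 and 0.221). Against scramble control replicate 1 alone the difference was -0.70 (SE 0.16, limma adjusted p = 3.3e-04).

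HEY2 had signals of 120 and 116 in the siKLF7 arrays and 116 and 72.6 in scramble control replicates 1 and 2. Scramble control replicate 1 stood level with the siKLF7 arrays, and replicate 2 alone was lower. With 3 arrays HEY2 rose by 0.59 (SE 0.16, 95% interval 0.27 to 0.91), or 1.51-fold, against replicate 2 (limma adjusted p = 0.031). The call ended with a prior with no intensity trend (limma adjusted p = 0.061), and the gene was not tested once the dimmest 25% of genes were left out. With 4 arrays the log2 difference was 0.31 (SE 0.21, -0.26 to 0.87, limma adjusted p = 0.644), and against scramble control replicate 1 alone it was 0.02 (SE 0.16, limma adjusted p = 0.945). The rise thus rests on 1 control array, and its SE on the siKLF7 pair and the prior. In the same fit KRT15, KRT12, ALDH3A1 and KRT3 also rose against replicate 2, as did POSTN and LUM of the fibroblast and keratocyte list. The other measured epithelial markers, PAX6, KRT14, KRT5, CDH1 and EPCAM, differed by 0.27, 0.09, 0.07, -0.02 and -0.03. Other fibroblast and keratocyte markers lay between -0.29 and 0.02. The part of any of these markers in the HEY2 value was not tested.

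The promoters of HES1 and HEY2 are shown because these 2 targets hold matches to the motif of RBPJ, the DNA-binding partner of cleaved Notch, searched as TGGGAA on both strands. Capitals mark the matches. The HES1 stretch covers the 120 bases before the start (RefSeq, GRCh38.p14, chr3:194136028-194136147, plus strand). The HEY2 stretch runs from 220 bases before the start to 6 bases after it (RefSeq, GRCh38.p14, chr6:125749412-125749637, plus strand).
HES1: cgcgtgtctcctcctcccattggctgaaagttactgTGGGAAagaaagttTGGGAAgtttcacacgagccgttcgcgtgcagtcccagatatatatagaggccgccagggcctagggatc
HEY2: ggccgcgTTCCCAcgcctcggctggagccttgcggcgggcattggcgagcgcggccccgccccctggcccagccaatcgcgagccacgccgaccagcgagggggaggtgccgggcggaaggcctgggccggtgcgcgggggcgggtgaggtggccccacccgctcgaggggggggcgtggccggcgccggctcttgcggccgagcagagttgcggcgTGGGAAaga
In HES1 the 2 matches begin 84 and 70 bases before the start, both on the gene's strand. In HEY2 the first, 213 bases before the start, is on the other strand, and the second begins 3 bases before the start. The 6-base motif was found in 3 of the 8 genes with a promoter entry (HES1, HEY2 and LFNG) and in 24.0% of the 35116 promoters. The longer GTGGGAA, which overlaps it, was found in HES1 and HEY2 and in 6.25% of promoters. The other 5 genes had no match in these windows.

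**Figure D3:**
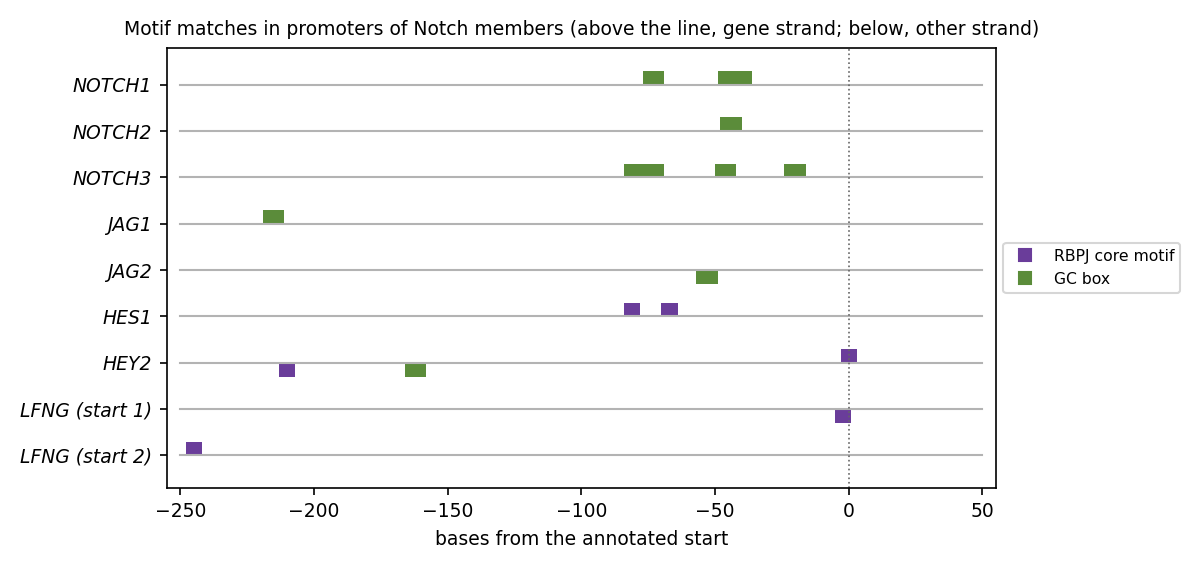
Matches to the 6-base RBPJ motif (purple) and the GC box (green) from 250 bases before to 50 after the annotated start (dotted line) of 8 Notch genes, with 2 starts for LFNG. Boxes above the line are on the gene's strand and boxes below on the other. NOTCH3 holds 4 GC boxes, and HES1 holds 2 RBPJ matches within 84 bases of the start.

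The spread within groups was unequal. The control arrays were further apart than the siKLF7 arrays for 10 of the 10 Notch genes, against 65.1% of all genes. The median gap between the controls was 0.47 (log2) over the 10 and 0.20 over all genes, while the median gap between the siKLF7 arrays was 0.05 over the 10 and 0.12 over all genes. Relative to the mean of the other arrays, scramble control replicate 1 was lower for NOTCH3, HES1 and LFNG (-1.23, -1.23 and -0.76) and higher for JAG2, HEY1 and NOTCH2 (0.77, 0.56 and 0.41). The remaining 4 genes stood within 0.18 of the others there. Set against scramble control replicate 2, both siKLF7 arrays were above it for 5 of the 10 genes and below it for 4, against 29.7% and 44.6% of all genes.

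**Figure D4:**
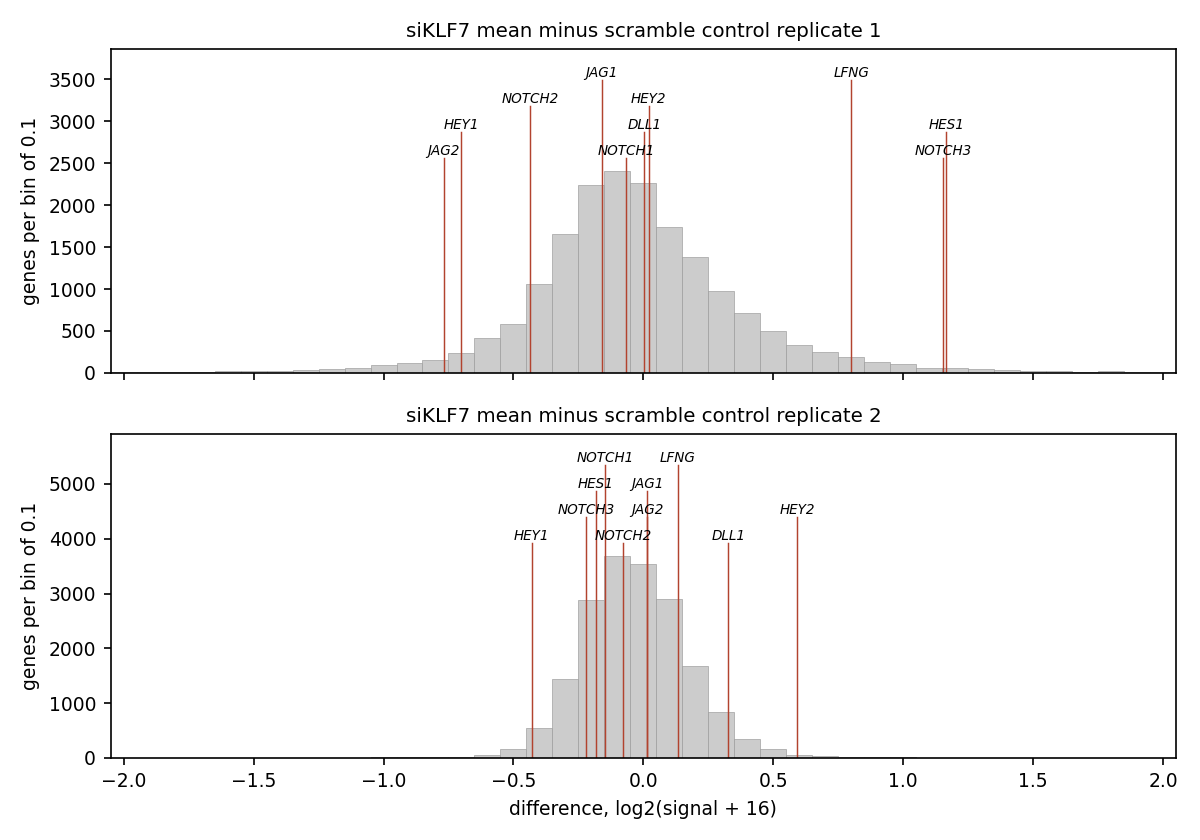
Mean of the siKLF7 arrays minus scramble control replicate 1 (top) or replicate 2 (bottom) for 18417 genes, as counts per bin of 0.1 on the log2(signal + 16) scale, with Notch genes as red lines. The 287 genes beyond the axis in the top panel are not drawn. The middle 90% of genes spans -0.66 to 0.76 at the top, where HES1 (1.17), NOTCH3 (1.15), LFNG (0.80), HEY1 (-0.70) and JAG2 (-0.77) lie outside it, and -0.34 to 0.31 at the bottom, where HEY2 (0.59), DLL1 (0.33) and HEY1 (-0.43) lie outside it.

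The rest of the pathway was followed through a list of 48 other genes, of which 44 were measured under a single symbol. With limma 0 of 44 passed with 4 arrays and 0 of 44 with 3 arrays. At an unadjusted p below 0.05 there were 2 with 4 arrays, RBPJ higher and HEYL lower, against 5.8% of all genes, and 8 with 3 arrays, of which 4 were higher, against 11.3%. The list median was -0.10 with 4 arrays and -0.08 with 3 arrays. Both siKLF7 arrays were above both controls for 7 of the 44 and below both for 15, close to the 16.3% and 28.9% of all genes.

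In the nuclear complex (8 of 11 measured), RBPJ had signals of 1248 and 1192 in the siKLF7 arrays and 896 and 897 in scramble control replicates 1 and 2. Both siKLF7 arrays were above both controls, which for this gene were level with each other. The log2 difference was 0.44 (SE 0.13, limma adjusted p = 0.639) with 4 arrays and 0.44 (SE 0.14, limma adjusted p = 0.126) with 3 arrays. It was 0.47 with 3 arrays after median centring, and 0.44 against scramble control replicate 1 alone. A second, dimmer RBPJ feature differed by 0.04 with 4 arrays and 0.05 with 3 arrays, so the features disagreed. KAT2B, an acetyltransferase recruited to the Notch complex, had signals of 688 and 588 in the siKLF7 arrays and 194 and 493 in the controls. It was above both controls, at 1.00 (SE 0.44) with 4 arrays and 0.36 (SE 0.16) with 3 arrays. MAML2, a Mastermind coactivator, had signals of 882 and 829 in the siKLF7 arrays and 1290 and 647 in the controls, between which the siKLF7 arrays lay.

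NRARP, a feedback inhibitor that Notch itself induces, showed the largest gap of control replicate 1 among the 44 genes. It had signals of 453 and 508 in the siKLF7 arrays and 93.5 and 423 in scramble control replicates 1 and 2. The siKLF7 arrays were above both controls, but by little against replicate 2. NRARP differed by 1.18 (log2, SE 0.67) with 4 arrays and by 0.17 (SE 0.16) with 3, and neither passed in limma. Replicate 1 of the control was thus low for NRARP (-2.12 against the mean of the others) as it was for NOTCH3, HES1 and LFNG. Among the other named HES and HEY genes, it was higher for HEY1, HEYL and HEY2 (0.56, 0.31 and 0.18) and lower for HES2 (-0.57). HEYL, the third HEY family member, differed by -0.33 (SE 0.11) with 4 arrays and -0.25 (SE 0.16) with 3 arrays and was below both controls, and HES2 differed by 0.06 (SE 0.29) and -0.33 (SE 0.16), with opposite signs.

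Among the other ligands and the receptor NOTCH4 (5 of 5 measured), 4 were below both controls, against 28.9% of all genes. DLL4, a Delta ligand of endothelium, differed by -0.23 (SE 0.13) with 4 arrays and -0.33 (SE 0.16) with 3 arrays, DLL3 by -0.36 and -0.23, and DLK1, a non-canonical ligand, by -0.22 and -0.31. Of the glycosylation enzymes (4 of 4 measured), POGLUT1, an O-glucosyltransferase of Notch repeats, was above both controls at 0.30 (SE 0.15) and 0.28 (SE 0.16). POFUT1, which adds the fucose that Fringe extends, stood at -0.22 and -0.13, and RFNG at 0.07 and -0.20. Of the cleavage genes (8 of 9 measured), the gamma-secretase subunits APH1B, NCSTN and PSENEN differed by 0.17, -0.14 and -0.10 with 4 arrays and by 0.38, 0.14 and -0.09 with 3 arrays. The groups did not overlap for 1 of the 8 cleavage genes, PSENEN, against 45.2% of all genes.

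Among trafficking proteins and ubiquitin ligases (12 of 12 measured), 2 were above both controls and 6 below both, against 16.3% and 28.9% of all genes. FBXW7, the ligase subunit that marks the cleaved Notch fragment for degradation, had signals of 362 and 334 in the siKLF7 arrays and 263 and 282 in the controls. It was above both controls, at 0.34 (SE 0.13) with 4 arrays and 0.29 (SE 0.16) with 3 arrays. NUMBL, a relative of the Notch inhibitor NUMB, differed by -0.26 (SE 0.14) and -0.31 (SE 0.15), and DTX1, a Deltex ligase, by -0.21 (SE 0.14) and -0.34 (SE 0.16). DTX4 had signals of 443 and 374 in the siKLF7 arrays and 908 and 478 in the controls. It differed by -0.68 (SE 0.33) with 4 arrays, the lowest value of the 44 genes, and by -0.23 (SE 0.16) with 3 arrays. Scramble control replicate 1 was 2.07-fold above the mean of the others for DTX4. NUMBL, DTX1 and DTX4 were below both controls. None of these genes passed in limma with 4 or 3 arrays.

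**Figure D5:**
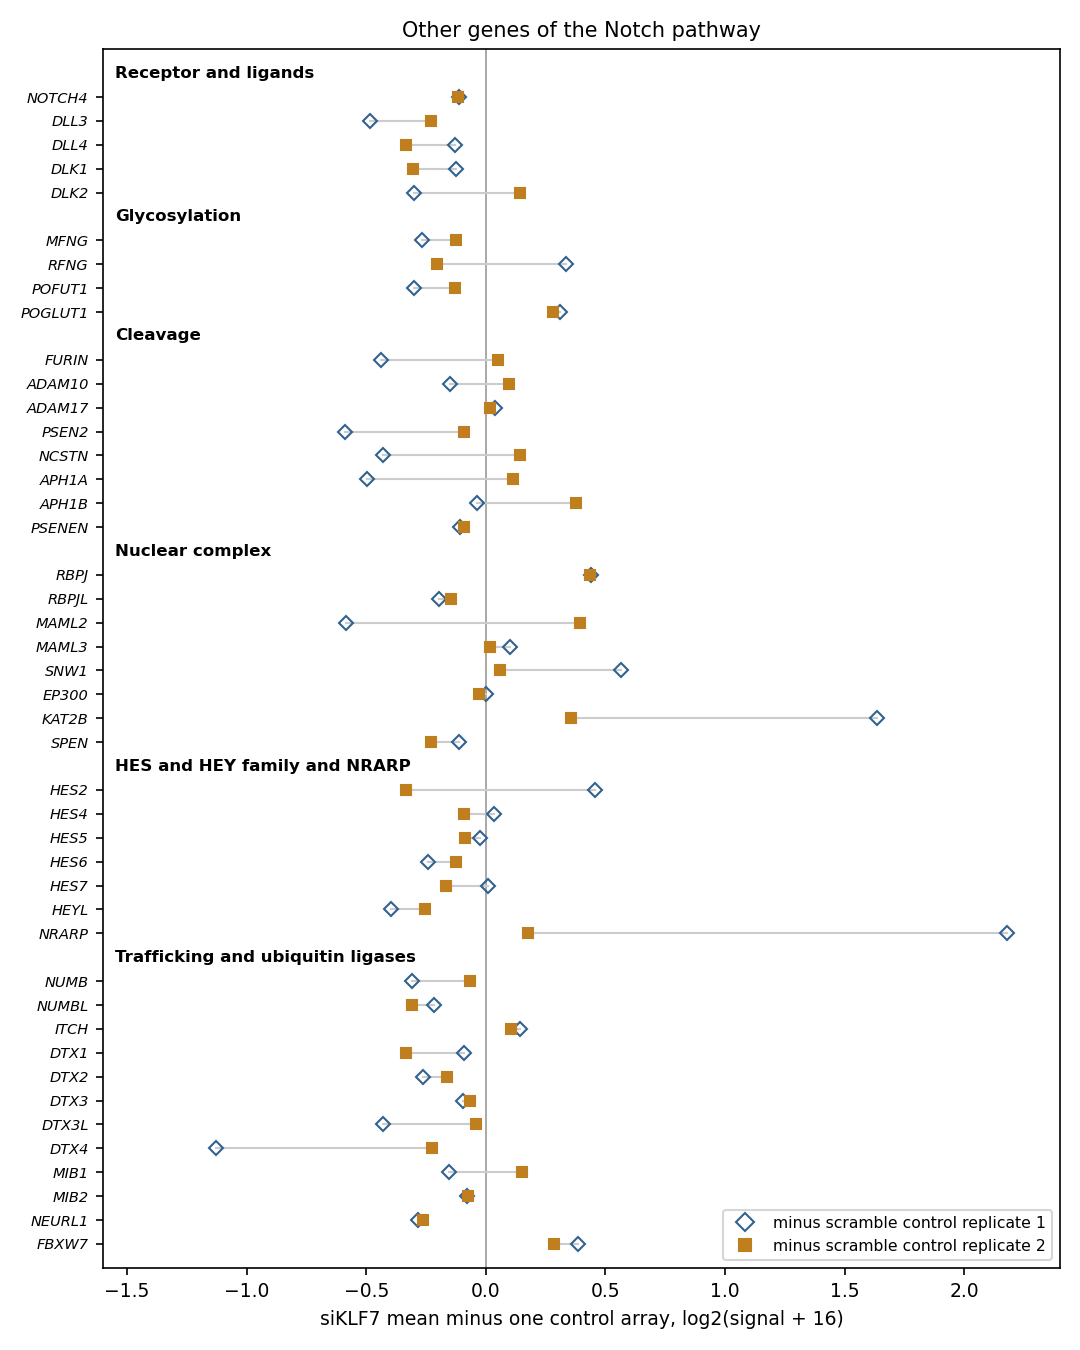
Mean of the siKLF7 arrays minus scramble control replicate 1 (open diamonds) or replicate 2 (orange squares) on the log2(signal + 16) scale, for 44 other Notch pathway genes by role. RBPJ lies at 0.44 against either control, whereas NRARP lies at 2.18 against replicate 1 and 0.17 against replicate 2.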

How the data were processed

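Total RNA of 4 samples was measured on whole-transcript arrays. The authors deposited 1 table of intensity values on a linear scale, for which the submitters' processing notes name PLIER 2.0 and Affymetrix Expression Console 1.1.1. The sources used here do not give any normalization between arrays. Over all features, siKLF7 replicates 1 and 2 had medians of 190.3 and 185, and scramble control replicates 1 and 2 had 187 and 194. The table gives no detection call, so whether a dim gene is above background is unknown. With 2 arrays per group, their number limits the precision.

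Of 33297 features, 19460 had 1 gene symbol in the platform annotation, 1754 had several and 12083 had none listed. The feature with the highest mean level stood for a gene, which gave 18417 genes. Values were analysed as log2(signal + 16) with limma 3.58.1 in R 4.3.3 (lmFit, eBayes with an intensity trend), with Benjamini-Hochberg adjustment over all genes. The 4-array fit had 2 residual and 2.63 prior degrees of freedom, and the fit without scramble control replicate 1 had 1 and 74.2. With 3 arrays the lone control is assumed to vary like the siKLF7 pair. For the Notch genes the median log2 gap was 0.47 between the controls and 0.05 between the siKLF7 arrays, beside 0.20 and 0.12 over all genes. The control gap includes the left-out replicate 1, so it cannot show how replicate 2 alone varies. An exact two-sided permutation test of 2 arrays against 2 cannot go below p = 0.333, which groups that do not overlap reach. That held for LFNG, HEY1, NOTCH1 and KLF7, for 22 of the 44 other pathway genes and for 45.2% of all genes.

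The members and lists were chosen with earlier results of these data known. All 10 members and KLF7 were named, and from the wider list any gene that passed in either fit plus up to 3 per role by the smallest 3-array p. DTX4 was added for its 4-array value, the lowest of the wider list, and its values under other settings are not given. Alternatives were quantile normalization, median centring, pseudocounts of 1 and 32, leaving out the dimmest 25% or 50% of genes, other priors, averaging the features of a gene, a block for the replicate number, an adjusted p under 0.10, and fits that leave out each array. The scripts were tested on simulated data. Figures were drawn with matplotlib 3.10.9.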

Additional observations from a re-analysis of the deposited data

How the results depend on the processing

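With 4 arrays, 0 of 10 Notch genes, 0 of 44 other pathway genes and 0 of 18417 genes passed in limma under every setting that kept all 4 arrays. Under those settings all 95 member values and 172 values of the named pathway genes other than DTX4 kept their sign. In the main fit the smallest limma adjusted p over all genes was 0.639, which the targeted KLF7 also had. These counts of 0 therefore say nothing about Notch genes in particular. Leaving out 1 array gave 0 to 6 Notch genes, 0 to 13 other pathway genes and 0 to 4935 genes in all. The highest counts came without scramble control replicate 2. The counts were 1, 0 and 290 where scramble control replicate 1 was left out. The median difference of the 10 Notch genes, 0.05, ran from -0.03 to 0.11 over these fits and was -0.07 without the dimmest 50% of genes, which left 7 of the 10. Over the leave-one-out fits the log2 difference ran from -0.22 to 1.15 for NOTCH3, -0.16 to 0.015 for JAG1, -0.77 to 0.015 for JAG2, -0.18 to 1.17 for HES1, -0.036 to 0.38 for APH1B, -0.33 to 0.46 for HES2, -0.58 to 0.39 for MAML2, -0.43 to 0.14 for NCSTN and -0.20 to 0.34 for RFNG.

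The samples share only replicate numbers, and deviations of same-numbered arrays from their group means correlated at -0.04. With the replicate number as a block, 0 of 10 Notch genes and 0 genes in all passed. With 3 arrays, 290 genes passed, against 484 with quantile normalization and 172 with no trend. The Notch count of 1 became 0 with no trend, and 0 without the dimmest 25% or 50% of genes, where HEY2 was no longer tested. The 3-array median of the 10 was -0.03, ran from -0.07 to 0.02 without 1 siKLF7 array, and was -0.08 without the dimmest 50% and 0.0012 with median centring. The pathway count of 0 became 1, RBPJ, with median centring. With quantile normalization JAG1 stood at -0.0012 and JAG2 at -0.0084, against 0.015 for both without it. Leaving out 1 siKLF7 array gave -0.18 to 0.019 for NOTCH2 and -0.26 to 0.0067 for POFUT1. The cause was not tested. The residual spread with 3 arrays comes from the siKLF7 pair alone (1 degree of freedom), and the SE mostly from the prior (74.2). The dimness of HEY1 and HEY2 limits their fold changes.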
